A study of Homo sapiens with 12 samples.

Results

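The 10 genes described here are the suppressor of cytokine signalling genes SOCS1 to SOCS7, the related gene CISH, and the Janus kinase genes JAK1 and JAK2. They were chosen by name from 60662 genes in the RNA count files, and each symbol was matched to its Ensembl identifier. All 10 passed the filter on low RNA counts. The series table of footprints and translational efficiency lists 9 of them, without SOCS1, and 7 of these had enough footprint reads to be tested.

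The cells were HEK293T, an established human embryonic kidney line, of genotype WT in every group. They were treated for 6 h with 20 µM STM2457, which inhibits the m6A methyltransferase METTL3, dissolved in 0.2% DMSO, or with 0.2% DMSO alone. Every culture also received an extra 10% of fetal bovine serum 1 h before lysis and cycloheximide, which stalls elongating ribosomes, at 100 µg/ml for the last 3 min. The labels name no added cytokine, and all results come from this single cell line. Each arm has 4 poly(A) RNA-seq libraries and 2 ribosome profiling libraries, the latter from footprints of 26 to 34 nt. Whether the replicates are independent cultures is not given, so every p-value here rests on a spread that may be technical.

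Cytokine receptors without kinase activity of their own are bound by Janus kinases, which phosphorylate the receptor and then STAT transcription factors. SOCS proteins close this loop as feedback inhibitors. Their SH2 domain binds phosphorylated tyrosines, and their SOCS box recruits elongin B, elongin C and cullin 5 to mark the bound protein for degradation. SOCS1 and SOCS3 also carry a short region that blocks the kinase directly. m6A is a methyl mark on adenosines of mRNA that can shorten mRNA life, and in mouse T cells Socs1, Socs3 and Cish mRNAs have been described as m6A-marked.

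RNA-seq libraries held 43112223 to 51425432 gene counts and footprint libraries 3198063 to 4711513 reads in the series table. RNA levels are CPM, gene counts relative to library size, scaled by TMM, edgeR's method that takes most genes as unchanged. ERCC spike-in sequences took 0.389% to 0.408% of counts with DMSO and 0.415% to 0.466% with STM2457. Scaled by them instead, the log2 fold change of the median gene was -0.19. HEK293 genes such as SALL1, NEFL, NEFM and VIM were expressed, and none of the 9 genes of that list was under 1 CPM in every library. In the blood cell list 6 of 7 genes were under 1 CPM in every library and HBB was at 0. In the fibroblast list 5 of 7 were under 1 CPM, and in the epithelial carcinoma list 4 of 6 were, with KRT5 and KRT7 at 0. The summed level of the blood list was 2.65 to 3.21 CPM with DMSO and 2.86 to 3.10 CPM with STM2457, that of the fibroblast list 17.7 to 22.3 and 18.4 to 19.8 CPM, and that of the epithelial list 6.87 to 8.12 and 6.29 to 7.94 CPM. The summed HEK293 list was 1061 to 1095 CPM with DMSO and 1205 to 1242 CPM with STM2457.

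Of the 10 genes, 6 rose in RNA with STM2457 and none fell. The increases were SOCS6 (1.87-fold), SOCS5 (1.65-fold), SOCS3 (1.45-fold), CISH (1.36-fold), SOCS7 (1.26-fold) and SOCS2 (1.21-fold). SOCS1, SOCS4, JAK1 and JAK2 did not pass edgeR's quasi-likelihood test at an adjusted p of 0.05. In the same test 26.2% of 17807 genes rose and 21.6% fell. The median log2 fold change was 0.31 over the 10 genes and 0.00 over all tested genes. In the 6 genes that rose, all 4 STM2457 libraries lay above all 4 DMSO libraries, as in 24.9% of all tested genes, and in the other 4 members the arms overlapped. With spike-in scaling, SOCS5, SOCS6, SOCS7 and CISH were still called higher, SOCS2 and SOCS3 were not called, and SOCS4, JAK1 and JAK2 were called lower. In that scaling 12.1% of all tested genes were higher and 47.1% lower.

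**Figure D1:**
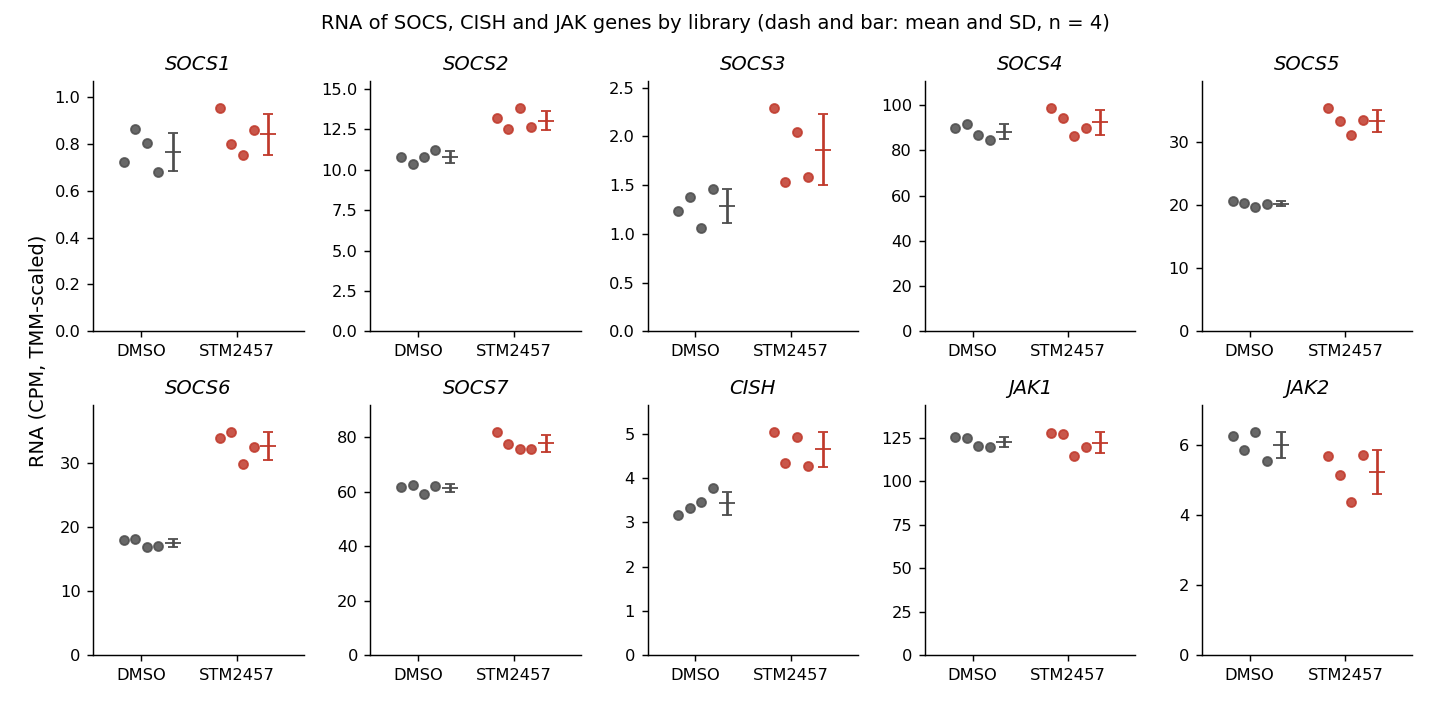
RNA of the 10 genes in each library, in CPM on an axis from 0 for each gene, with points for the 4 DMSO (grey) and 4 STM2457 (red) libraries and the mean and SD beside them. SOCS2, SOCS3, SOCS5, SOCS6, SOCS7 and CISH had no STM2457 library within the DMSO range, and the other 4 genes overlapped.

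SOCS6 (ENSG00000170677.6, chromosome 18), whose product binds receptor tyrosine kinases such as KIT, had the largest increase of the family. Its RNA was at 18.1, 18.1, 16.8 and 17.1 CPM with DMSO and at 33.9, 34.9, 29.8 and 32.5 CPM with STM2457. The means were 17.5 ± 0.649 and 32.8 ± 2.19 CPM (SD, n = 4 per arm), a gap larger than the SD within either arm. The log2 fold change was 0.90 (SE 0.05, edgeR quasi-likelihood adjusted p = 1.93e-08), higher than that of 97.5% of tested genes, and it was 0.71 with spike-in scaling.

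SOCS5 (ENSG00000171150.9, chromosome 2), described as a regulator of the EGF receptor and of interleukin-4 signalling, showed the next largest increase. DMSO libraries gave 20.7, 20.3, 19.8 and 20.2 CPM and STM2457 libraries 35.4, 33.4, 31.1 and 33.6 CPM. The log2 fold change was 0.72 (SE 0.04, edgeR adjusted p = 3.33e-08), and 0.52 with spike-in scaling. Of the 10 members, SOCS6 and SOCS5 were the 2 called higher with an RNA change of at least 1.5 fold, as were 1225 of all 17807 tested genes.

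SOCS7 (ENSG00000274211.6, chromosome 17), which binds the adaptor NCK, rose by less but with little spread. It was at 61.8, 62.6, 59.3 and 62.2 CPM with DMSO and at 82.1, 77.4, 75.6 and 75.8 CPM with STM2457. The log2 fold change was 0.34 (SE 0.03, edgeR adjusted p = 3.1e-06), and 0.14 with spike-in scaling (edgeR adjusted p = 0.0286). SOCS4 (ENSG00000180008.9, chromosome 14), the closest relative of SOCS5, did not follow it. Its 4 DMSO libraries were at 90.1, 91.9, 86.9 and 84.4 CPM and its 4 STM2457 libraries at 98.8, 94.3, 86.5 and 89.8 CPM, with overlapping arms. The log2 fold change was 0.07 (SE 0.04, edgeR adjusted p = 0.226) and turned to -0.13 with spike-in scaling, which passed (edgeR adjusted p = 0.0434).

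CISH, SOCS2 and SOCS3 also rose, while SOCS1, described below, was not called. CISH (ENSG00000114737.15, chromosome 3) encodes an inhibitor that competes with STAT5 for receptor sites and is itself a classic STAT5 target. It was at 3.16, 3.33, 3.47 and 3.77 CPM with DMSO and 5.05, 4.35, 4.93 and 4.27 CPM with STM2457. Every STM2457 library was above the highest DMSO library (log2 fold change 0.44, SE 0.09, edgeR adjusted p = 0.000937), and with spike-in scaling the change was 0.24 (edgeR adjusted p = 0.0469).

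The RefSeq promoter table (GRCh38.p14) holds windows for 7 of the 10 genes, without SOCS2, SOCS5 and SOCS7. Their 250 bases upstream of each listed start were searched for TTCNNNGAA, the palindrome that STAT dimers bind. It reads the same on both strands, so 1 strand was searched. CISH had 4 matches and no window of the other 6 genes had any. At least 1 match was present in 6.57% of 35116 windows of this length and at least 4 in 5 windows (0.0142%). The stretch that carries the CISH matches, at chr3:50611870-50612023 on the minus strand, is shown because it sets CISH apart from the other promoters searched. Capitals mark the matches, which begin 241 to 112 bases upstream of the start.
CISH: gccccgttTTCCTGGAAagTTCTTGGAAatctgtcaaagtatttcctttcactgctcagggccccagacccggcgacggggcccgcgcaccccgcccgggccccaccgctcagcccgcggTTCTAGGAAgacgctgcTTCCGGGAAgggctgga
A match is a run of letters, and no factor binding was measured here.

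SOCS2 (ENSG00000120833.14, chromosome 12), an inhibitor of growth hormone receptor signalling, was at 10.8, 10.3, 10.8 and 11.2 CPM with DMSO and 13.2, 12.5, 13.8 and 12.7 CPM with STM2457. The arms did not overlap (log2 fold change 0.27, SE 0.05, edgeR adjusted p = 0.000809), but with spike-in scaling the change was 0.08 and was not called (edgeR adjusted p = 0.409). SOCS3 (ENSG00000184557.4, chromosome 17), the inhibitor bound to the IL6 receptor chain gp130, rested on few reads, 50 to 113 counts per library. Its levels were 1.24, 1.38, 1.06 and 1.46 CPM with DMSO and 2.29, 1.53, 2.04 and 1.59 CPM with STM2457. The STM2457 values were all higher, the lowest of them by a small margin (log2 fold change 0.53, SE 0.15, edgeR adjusted p = 0.0121). The call was lost with spike-in scaling (0.34, edgeR adjusted p = 0.0619) and in replicates 3 and 4 alone (0.52, edgeR adjusted p = 0.0697).

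SOCS1 (ENSG00000185338.5, chromosome 16), the direct inhibitor of JAK kinases best known from interferon signalling, was the member with the fewest counts, 32 to 47 per library. It was at 0.724, 0.862, 0.804 and 0.68 CPM with DMSO and 0.954, 0.799, 0.752 and 0.858 CPM with STM2457. The arms overlapped, and 1 of 4 STM2457 libraries was above the highest DMSO library. The log2 fold change of 0.14 (SE 0.14, edgeR adjusted p = 0.501) had a standard error as large as itself, and it was -0.06 with spike-in scaling, so no change was detectable at this depth.

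JAK1 (ENSG00000162434.12, chromosome 1), the kinase shared by interferon, IL2 and IL6 family receptors, gave nearly equal means in both arms. Its DMSO libraries were at 125.6, 124.7, 120.5 and 119.6 CPM and its STM2457 libraries at 127.7, 127.4, 114.7 and 119.6 CPM. The means were 122.6 ± 3.00 and 122.3 ± 6.32 CPM (SD, n = 4; log2 fold change 0.00, SE 0.04, edgeR adjusted p = 0.962). With spike-in scaling it was called lower, at about the shift of the median gene (-0.20, edgeR adjusted p = 0.00215).

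JAK2 (ENSG00000096968.13, chromosome 9), the kinase of the growth hormone, prolactin and erythropoietin receptors, was the member with the lowest RNA fold change. It was at 6.25, 5.83, 6.35 and 5.54 CPM with DMSO and 5.66, 5.13, 4.35 and 5.70 CPM with STM2457. The arms overlapped, with 2 of 4 STM2457 libraries below the lowest DMSO library, and gave a log2 fold change of -0.20 (SE 0.09, edgeR adjusted p = 0.0867). The RNA signal of the series table, which counts a part of each gene's reads, separated the arms. There JAK2 was at 112, 106, 122 and 103 with DMSO and 99.6, 90.4, 73.5 and 92.2 with STM2457 (log2 change -0.32, SE 0.10, limma adjusted p = 0.0126), and spike-in scaling of the gene counts also gave a call (-0.40, edgeR adjusted p = 0.000601).

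The reads behind that table were a varying share of the deposited gene counts. They made up 67.7% to 77.0% of the JAK2 counts over the 8 libraries, 70.4% to 71.7% for JAK1, 45.1% to 50.7% for SOCS5 and 37.1% to 45.7% for SOCS6. The share was 23.3% to 25.1% for SOCS4 and 15.8% to 18.7% for SOCS7. RNA changes by the table's signal were close to those by gene counts for SOCS5 (log2 change 0.70), CISH (0.40) and JAK1 (-0.07). For SOCS6 the table gave 0.66 against 0.90, and for SOCS2 0.17 against 0.27, both still called by limma (adjusted p = 4e-06 and 0.0235).

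By the rule for likeness, SOCS6, the member with the largest called RNA change, was set against 11242 genes of at least 5 CPM over the 8 RNA-seq libraries. The log2 CPM of MAPK1IP1L, OBI1 and PDZD8 had the highest Pearson r with it, at 0.9997, 0.9996 and 0.9995. Their RNA log2 fold changes were 0.52, 0.93 and 0.90. All 8 points share the same libraries and the treatment, so r mainly describes the step between arms.

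Of the 7 members tested in footprints, SOCS5 and SOCS6 rose and none fell. Among 10906 genes limma called 9.59% higher and 6.13% lower. The footprint levels are the authors' normalized signal, reads divided by a factor per library, and 1 read was worth 3.22 to 4.82 units. SOCS6 footprints were at 164 and 145 with DMSO and 281 and 316 with STM2457, from 51, 30, 74 and 81 reads. Both STM2457 values lay above both DMSO values (log2 change 0.95, SE 0.25, limma adjusted p = 0.00496). SOCS5 footprints were at 90.1 and 130.1 with DMSO and 194 and 219 with STM2457, from 28, 27, 51 and 56 reads (0.92, SE 0.30, limma adjusted p = 0.0266). On the recovered reads edgeR called SOCS5, SOCS6 and JAK2 higher and no member lower, among 10.2% of genes higher and 5.57% lower (SOCS6 0.96, edgeR adjusted p = 0.00348, and SOCS5 0.96, edgeR adjusted p = 0.0174). With 1 library left out, the SOCS5 call held without DMSO replicate 2 (limma adjusted p = 0.0229) and was lost without DMSO replicate 1 (0.267), STM2457 replicate 1 (0.0688) or STM2457 replicate 2 (0.174). The SOCS6 call held without DMSO replicate 1 (limma adjusted p = 0.0141) or STM2457 replicate 1 (0.0184) and was lost without DMSO replicate 2 (0.057) or STM2457 replicate 2 (0.0704), and without a variance trend in limma neither gene passed (SOCS6 0.0526, SOCS5 0.108).

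**Figure D2:**
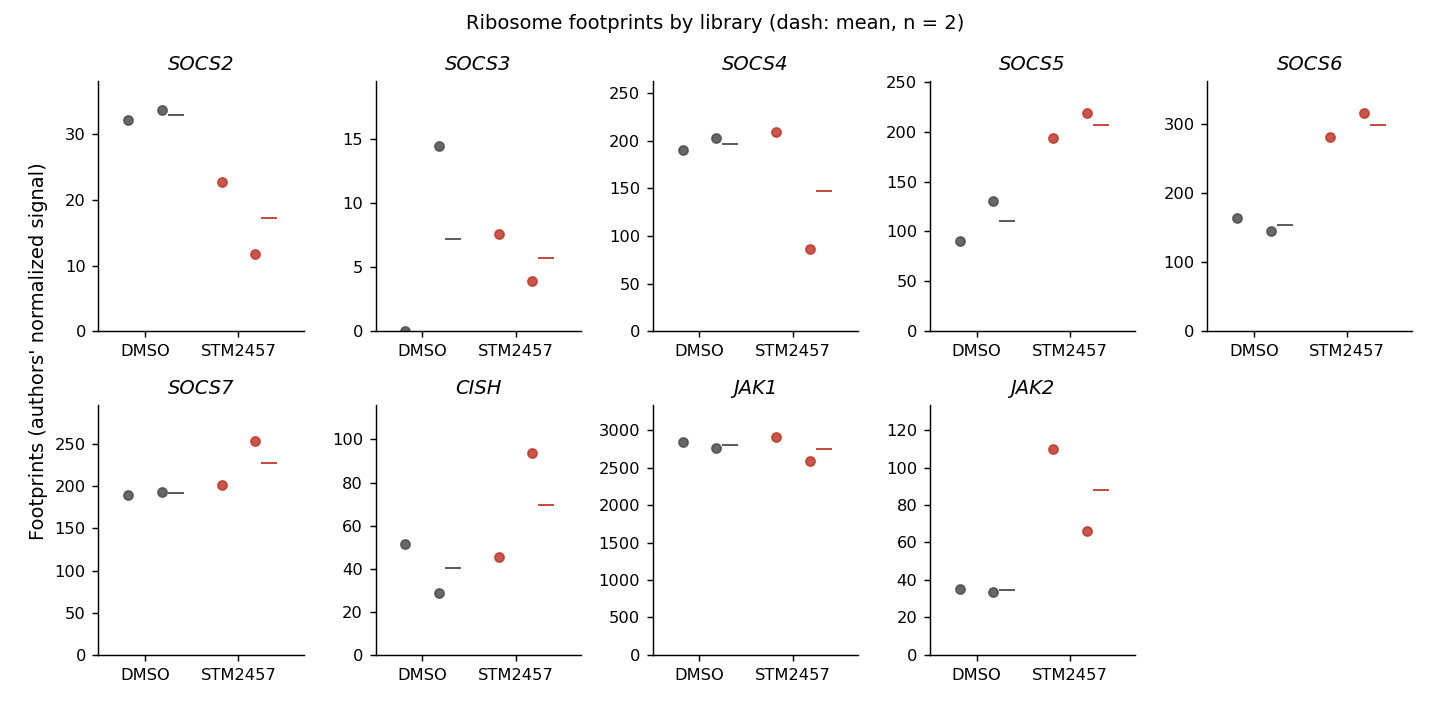
Footprint signal of 9 genes in each of the 2 DMSO (grey) and 2 STM2457 (red) libraries, as the authors' normalized signal on an axis from 0, with a dash at the mean. Both STM2457 points lie above both DMSO points for SOCS5, SOCS6, SOCS7 and JAK2 and below them for SOCS2.

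JAK2 had the highest footprint change of the 7 tested members, while its RNA change was negative. Its signal was 35.4 and 33.7 with DMSO and 110 and 66.4 with STM2457, from 11, 7, 29 and 17 reads. The STM2457 libraries were both higher, but they differed from each other by more than the DMSO libraries did. The log2 change of 1.28 (SE 0.48) did not pass in limma (adjusted p = 0.0603), and edgeR on the recovered reads gave 1.36 and a call (edgeR adjusted p = 0.0356). It was higher than the change of 99.2% of tested genes.

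SOCS7 footprints were at 190 and 193 with DMSO and 201 and 254 with STM2457, without overlap and without a call (0.24, SE 0.26, limma adjusted p = 0.603). Counted over the 7 tested members, 4 had both STM2457 values above both DMSO values, as in 25.7% of tested genes. JAK1, with 574 to 883 reads the most deeply covered member, was at 2842 and 2766 with DMSO and 2913 and 2585 with STM2457 (-0.03, SE 0.10, limma adjusted p = 0.893). CISH was at 51.5 and 28.9 with DMSO and 45.6 and 93.7 with STM2457, from 6 to 24 reads, with overlapping arms (0.74, SE 0.51, limma adjusted p = 0.37).

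SOCS4 footprints depended on a single library. They were at 190 and 202 with DMSO and 209 and 85.9 with STM2457, so that STM2457 replicate 1 was above and replicate 2 below both DMSO libraries. The log2 change was -0.55 (SE 0.31, limma adjusted p = 0.256), 0.09 without STM2457 replicate 2 and -1.18 without STM2457 replicate 1, where it was called (limma adjusted p = 0.018).

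SOCS2 and SOCS3 had a mean of under 10 footprint reads per library and were not tested. SOCS2 was at 32.2 and 33.7 with DMSO and 22.8 and 11.7 with STM2457, from 10, 7, 6 and 3 reads, and both STM2457 libraries were lower, as in 28.4% of tested genes. SOCS3 had 0 and 3 reads with DMSO and 2 and 1 with STM2457. A count of 0 in DMSO replicate 1 allows up to 3 reads, or a signal of 9.66, which spans both STM2457 values, so footprints of SOCS3 could not be compared at this depth. Without the read filter limma gave -0.97 for SOCS2 (adjusted p = 0.455) and 0.72 for SOCS3 (adjusted p = 0.86).

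Translational efficiency sets footprint signal against RNA signal of the same gene, and the test asks whether treatment moved the 2 assays by different amounts. None of the 7 tested members passed in limma with a weight per assay, where 0.229% of 10906 genes rose and 0.807% fell. At an unadjusted p under 0.05, 1 member passed, which was JAK2, against 1025 of all tested genes. The edgeR interaction called 1 member higher (JAK2) and none lower, among 0.862% of genes higher and 3.92% lower.

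JAK2 efficiency, taken per footprint library over the mean RNA signal of its arm, was 0.320 and 0.305 with DMSO and 1.24 and 0.747 with STM2457. The arms did not overlap, and the ratio of the means was 3.17. The log2 change was 1.60 (SE 0.39, limma adjusted p = 0.0653), above that of 99.96% of tested genes. It passed with the edgeR interaction (1.55, edgeR adjusted p = 0.0404) and with 1 spread shared by both assays (limma adjusted p = 0.00219). With 1 footprint library left out at a time, it ranged from 1.24 to 1.96 (limma adjusted p from 0.0939 to 0.347). Because the arms did not overlap, leaving out 1 library could not change its sign. The JAK2 change rested on 64 footprint reads in all.

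**Figure D3:**
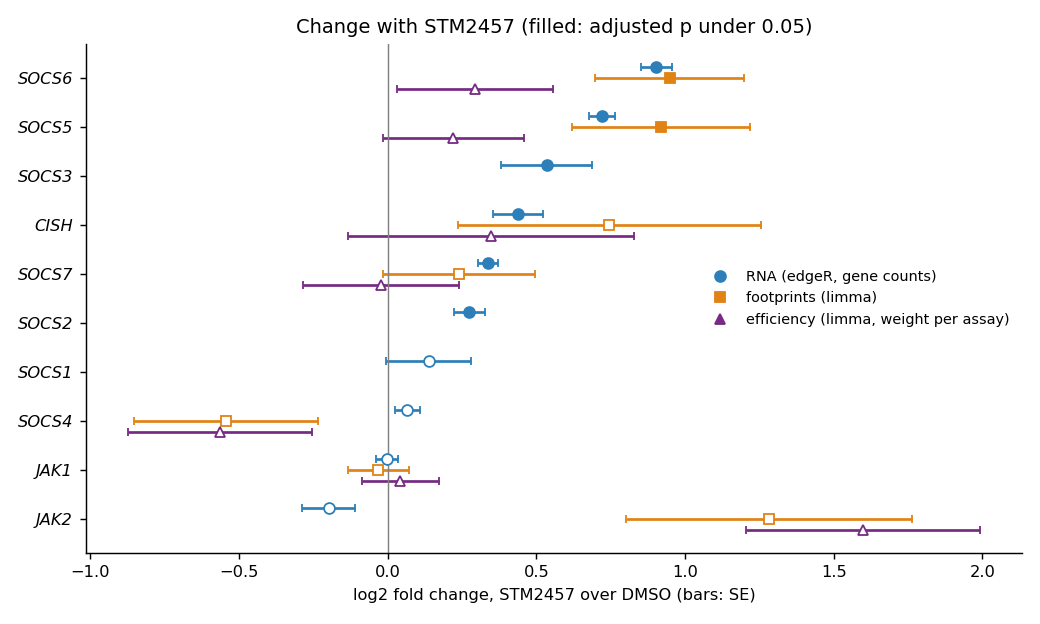
Log2 fold change of STM2457 over DMSO for RNA (circles), footprints (squares) and efficiency (triangles) with SE bars, filled where the adjusted p was under 0.05. The 6 RNA calls and the SOCS5 and SOCS6 footprint calls lie to the right of 0, and JAK2 footprints and efficiency lie far right without a call.

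In SOCS5 and SOCS6 footprints and RNA both rose, and the efficiency change was about as large as its SE and was not called. For SOCS6 the footprint change of 0.95 stood beside RNA changes of 0.90 by gene counts and 0.66 by the table's signal. For SOCS5 these were 0.92, 0.72 and 0.70. SOCS6 efficiency was 0.876 and 0.771 with DMSO and 0.949 and 1.07 with STM2457 (log2 change 0.29, SE 0.26, limma adjusted p = 0.842), without overlap. SOCS5 efficiency was 0.38 and 0.549 with DMSO and 0.502 and 0.566 with STM2457 (0.22, SE 0.24, limma adjusted p = 0.889). For SOCS6 the edgeR interaction, which takes RNA from the gene counts, gave 0.04. CISH (0.35, SE 0.48), SOCS7 (-0.02, SE 0.26) and JAK1 (0.04, SE 0.13) had limma adjusted p of 0.923, 0.993 and 0.973. SOCS4 efficiency was 0.361 and 0.385 with DMSO and 0.392 and 0.161 with STM2457 (-0.56, SE 0.31, limma adjusted p = 0.625), and it was called without STM2457 replicate 1 (-1.20, limma adjusted p = 0.0374).

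Efficiency is a ratio within a gene, so it can be set side by side between genes as far as both assays were counted over the same region, which is not given in the sources used here. The authors' deposited table takes its RNA means over replicates 1 to 3 (equal within a relative tolerance of 1e-06 in 12224 of 12224 genes), so its ratios differ slightly from those above, which use 4 RNA libraries. With DMSO the authors' deposited table gives 0.256 for SOCS2, 0.306 for JAK2, 0.364 for SOCS4 and 0.458 for SOCS5, where the median gene was at 1.01. Of 12224 genes, 4.54%, 6.41%, 9.14% and 13.6% had a lower efficiency than these members in the authors' deposited table. SOCS7 (0.706), SOCS6 (0.805) and SOCS3 (0.838) came next in the authors' deposited table, the SOCS3 value resting on 3 reads. CISH (1.35) and JAK1 (1.28) were the members above the median in the authors' deposited table.

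Among the per-library values with DMSO, CISH (0.921 to 1.64) and JAK1 (1.28 to 1.31) overlapped. SOCS2, JAK2 and SOCS4 did not, at 0.248 to 0.260, 0.305 to 0.320 and 0.361 to 0.385, and SOCS5 (0.38 to 0.549) overlapped SOCS4. These values rest on 10 and 7 footprint reads for SOCS2, 11 and 7 for JAK2 and 59 and 42 for SOCS4. Both values of a gene share the RNA mean of the arm. The narrow ranges therefore do not settle the order of these genes. With STM2457 the authors' deposited table places JAK2 and SOCS6 near the median gene at 1.00, with 50.3% and 50.1% of genes lower. SOCS2 was at 0.118 with STM2457 in the authors' deposited table, where 1.33% of genes were lower. The authors' deposited table gives log2 efficiency changes of 1.72 for JAK2 and -1.12 for SOCS2, the latter on 26 footprint reads.

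**Figure D4:**
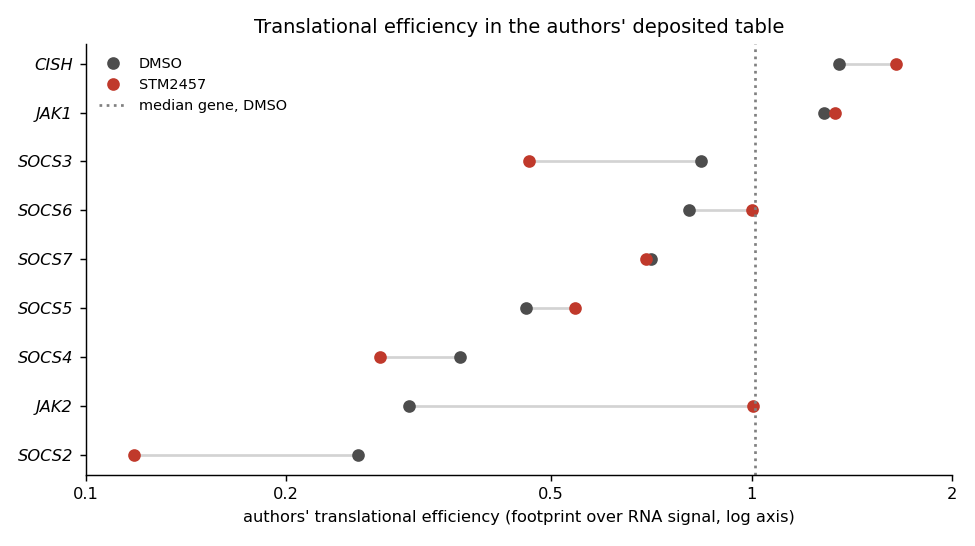
Translational efficiency of 9 members in the authors' deposited table with DMSO (grey) and STM2457 (red) on a log axis, with the median gene as a dotted line. JAK2 goes from 0.306 to near the median gene and SOCS2 from 0.256 to 0.118, and the JAK1 and SOCS7 points nearly coincide.

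The other genes of the pathway were described from 7 lists, and counts of RNA calls are read against the 26.2% of genes higher and 21.6% lower. Counts with spike-in scaling are read against its own shares, 12.1% of all tested genes higher and 47.1% lower. Of 9 other JAK and STAT genes 8 were tested, 1 rose and 1 fell (median log2 fold change -0.09), and with spike-in scaling 0 were higher and 7 lower (median -0.29). STAT3, the main factor downstream of gp130, fell from 77.9 ± 2.22 to 68.2 ± 2.63 CPM (SD, n = 4; log2 fold change -0.19, edgeR adjusted p = 0.000479). STAT5B rose by 0.15 (edgeR adjusted p = 0.00259), which turned to -0.05 with spike-in scaling.

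Of 28 cytokine receptor chains 19 were tested, 8 rose and 2 fell (median 0.06), and with spike-in scaling 3 were higher and 6 lower (median -0.14). IFNGR1, the ligand-binding chain for interferon gamma, rose by 0.58 in RNA (edgeR adjusted p = 1.1e-08) and by 0.71 in footprints (limma adjusted p = 4.48e-07). The gp130 gene IL6ST rose by 0.42 and its partner LIFR by 0.47 in RNA (edgeR adjusted p = 1.04e-05 and 9.73e-05), and their footprint changes of 0.31 and 0.02 were not called. Of 8 ligands of the IL6 family 6 were tested, 3 rose and none fell (median 0.23), and with spike-in scaling 2 were higher and 2 lower (median 0.037). CNTF went from 1.82 ± 0.151 to 6.27 ± 0.406 CPM (log2 fold change 1.78, edgeR adjusted p = 3.17e-09), CLCF1 rose by 0.85 from 0.259 CPM, and LIF rose by 0.43 (edgeR adjusted p = 0.0239). CNTF lies beside ZFP91 and shares a read-through transcript with it, so its counts are uncertain. The LIF arms overlapped, and its call was lost with spike-in scaling (0.24, edgeR adjusted p = 0.165). The LIF call held in 10 of 15 alternative settings and the CLCF1 call in 14 of 15.

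All 11 genes of the list of ubiquitin ligase partners were tested, 4 rose and 3 fell (median 0.01). The list is wider than the elongins and cullin 5 that the SOCS box recruits. It also holds cullin 2 and genes of NEDD8 conjugation. UBE2M, a NEDD8-conjugating enzyme, fell by 0.30 (edgeR adjusted p = 1.93e-06), and its footprints fell by 0.29 (limma adjusted p = 0.0473). ELOB, which encodes elongin B, and ARIH2 rose by 0.16 and 0.15, and with spike-in scaling they were at -0.03 and -0.04. RNF7, the RING protein paired with cullin 5, was at 0.04 in RNA and fell by 0.36 in footprints (limma adjusted p = 0.0402). Spike-in scaling gave 0 higher and 7 lower in this list (median -0.19).

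Among 18 other inhibitors and adaptors 17 were tested, 7 rose and 2 fell (median 0.06), and with spike-in scaling 3 were higher and 8 lower (median -0.13). The SUMO ligase gene PIAS4 rose by 0.51 and the adaptor SH2B3, an inhibitor of JAK2, by 0.46 (edgeR adjusted p = 5.25e-08 and 1.22e-06), followed by SH2B1 at 0.26. PIAS4 and PIAS1 footprints also rose, by 0.66 and 0.41 (limma adjusted p = 2.52e-05 and 0.0168), while PIAS1 RNA rose by 0.19 and was at -0.01 with spike-in scaling.

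Described targets of STAT factors, many of which also respond to serum, rose in 13 of 23 tested cases and fell in none (median 0.16, and -0.03 with spike-in scaling, where 9 were higher and 3 lower). MYC rose by 1.27, CEBPB by 0.86 and BCL2L1 by 0.48. Footprints rose for 6 of 20 tested targets, which were MYC (1.26), CEBPB (0.65), ZEB1 (0.75), JUNB (0.74), FOS (1.24) and TWIST1 (0.82). Over all genes tested in footprints, 9.59% rose and 6.13% fell. MCL1, an anti-apoptotic gene, was the only target lower in footprints (-0.34, limma adjusted p = 0.00836) while its RNA rose by 0.10, a change of -0.10 with spike-in scaling.

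The SPSB and ASB families carry the same SOCS box as the SOCS genes behind other binding domains. Of their 22 listed genes 11 were tested, 7 rose and 1 fell in RNA (median 0.42), and with spike-in scaling 6 were higher and 3 lower (median 0.23). ASB8 rose from 40.2 ± 1.04 to 73.5 ± 1.98 CPM (SD, n = 4; log2 fold change 0.87, edgeR adjusted p = 3.79e-10), SPSB1 by 1.02 and ASB7 by 0.83. In footprints 3 of 9 rose, ASB8 (0.76), ASB6 (0.52) and SPSB2 (2.24), where 9.59% of all tested genes rose. No gene of the 7 lists was called in efficiency by limma.

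**Figure D5:**
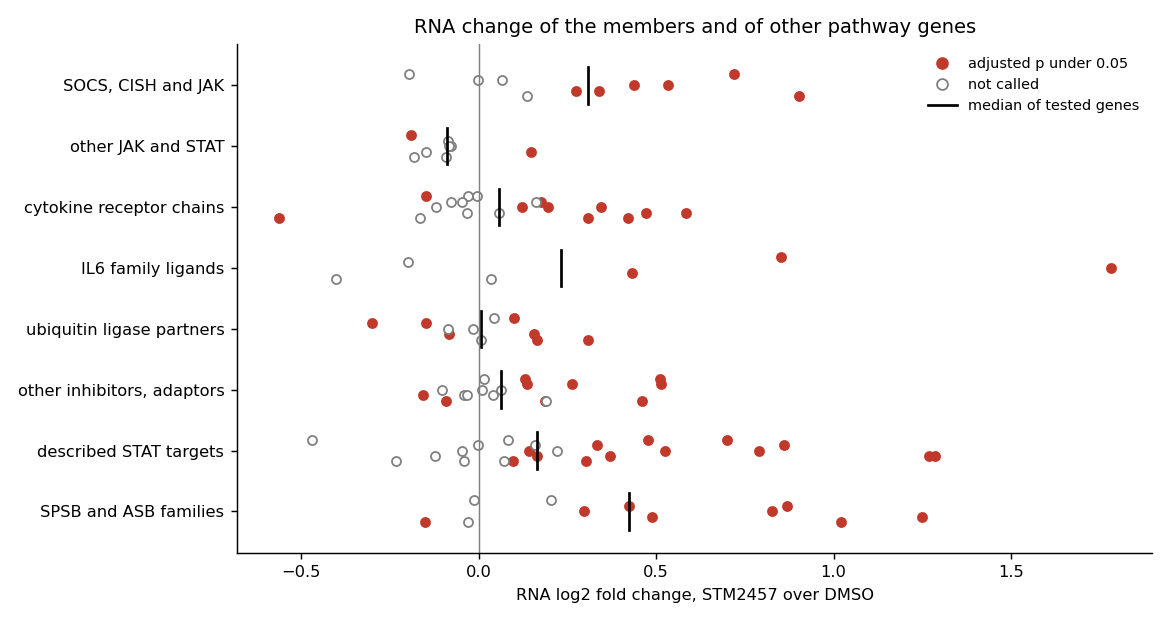
RNA log2 fold change of STM2457 over DMSO for each tested gene of the 10 members and of 7 lists, red where called by edgeR and open where not, with a black line at each median. The median of the members is 0.31, that of the other JAK and STAT genes -0.09 and that of the SPSB and ASB families 0.42.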

How the data were processed

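Raw read counts per gene were deposited by the authors for 8 RNA-seq libraries. The submitters' processing notes name STAR 2.7.3a, UMI-tools 1.1.2, Subread 2.0.3, featureCounts, SAMtools 1.10, DESeq2 and the build GRCh38.p12, without saying what each was used for. The authors' series table holds a normalized signal per library, a ratio of footprint to RNA signal per arm, and the log2 change of that ratio. In its footprint columns 100% of values were within 0.1 of a whole multiple of 1 read.

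RNA counts were tested with edgeR 4.0.16 (TMM, filterByExpr, quasi-likelihood test), spike-ins left out. Footprints were tested with limma 3.58.1 on log2(signal + 1) for genes with a mean of at least 10 reads per library, and efficiency as an interaction of assay and treatment with a weight per assay. Their changes are on that scale, which understates the change of low genes. The variance trend in limma was adopted after calls without it had been seen. P-values were adjusted over all tested genes (Benjamini-Hochberg, threshold 0.05). Alternatives included DESeq2 1.42.0, spike-in scaling, other pseudocounts and leaving out each library.

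All 10 members are named, and from each list the 3 genes with the smallest RNA p and any called in footprints or efficiency, except for a gene that is not reported here. Members and lists were chosen with earlier results of these data known. In bulk samples, fewer cells of a type and less RNA per cell cannot be told apart. No protein sequences were used here.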

Additional observations from a re-analysis of the deposited data

How the results depend on the processing

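In RNA, 6 members were higher and 0 lower with DESeq2, with RLE factors, without the count filter and without each library in turn. Without 1 library, 4346 to 4767 of all genes were higher and 3431 to 3880 lower. Spike-in scaling gave 4 members higher and 3 lower, with 2159 and 8383 of all genes, and the table's RNA signal gave 1 member lower. Under spike-in scaling the log2 changes of SOCS1 (-0.062), SOCS4 (-0.13), STAT5B (-0.046), ELOB (-0.032), ARIH2 (-0.041), RNF7 (-0.15), PIAS1 (-0.011) and MCL1 (-0.10) had the opposite sign, and RNF7 was at -0.073 by the table's RNA signal. JAK1 RNA, near 0 throughout, ranged from -0.022 to 0.027 without 1 library and was 0.015 in replicates 1 and 2 alone. Restricting to replicates 3 and 4 left 5 members higher. These 2 splits and the use of the table's signal were chosen after seeing the data.

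Footprint and efficiency calls were less stable. The variance trend in limma was adopted after the calls without it had been seen. Without it limma called 0 members, and 168 genes higher and 64 lower in footprints. Without 1 footprint library, 0 to 1 members were higher and 0 to 1 lower, among 742 to 844 genes higher and 262 to 620 lower. SOCS4 footprints then ranged from -1.18 to 0.091 and those of JAK1 from -0.12 to 0.055. In efficiency, JAK2 was the 1 member called with 1 shared spread (339 genes higher, 486 lower) and the 1 member called with the edgeR interaction (94 higher, 428 lower). Limma without a trend gave 15 higher and 55 lower, and no read filter gave 15 higher. Without 1 library, 0 to 1 members were lower, among 7 to 12 genes higher and 30 to 89 lower. Efficiency changes then ranged from -1.20 to 0.073 for SOCS4, -0.042 to 0.48 for SOCS5, -0.19 to 0.14 for SOCS7, -0.17 to 0.86 for CISH and -0.044 to 0.13 for JAK1, which was -0.020 with the edgeR interaction. The cause of these shifts was not tested.

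Same-numbered RNA libraries had correlations of deviations of 0.151, 0.227, 0.148 and 0.0763, not all over 0.1, and DMSO replicate 4 correlated best with STM2457 replicate 3, so single numbers were not taken as pairs. Replicates 1 and 2 did deviate together, as did 3 and 4. Correlations between arms were 0.0763 to 0.275 within these sets and -0.256 to -0.085 across them, and the values within each set are those of the 2 splits above. Footprints gave 0.0064. A replicate block gave 6 members higher and 0 lower in RNA and 2 higher and 0 lower in footprints. In efficiency the block was fitted on replicates 1 and 2 of both assays only, and it called no member. The members with the fewest reads were SOCS1 in RNA, with 32 to 47 counts per library, and SOCS2, SOCS3, CISH and JAK2 in footprints, with 26, 6, 58 and 64 reads in all.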
